A study of Mus musculus with 6 samples.

Results

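The 31 genes described here encode glycosidases, sulfatases and other acid hydrolases of the lysosome, together with the sulfatase activator Sumf1 and the lysosomal membrane protein Cln3. They were taken by gene symbol from a list of such enzymes, and all 31 were found among the 16775 genes of the table. The cells were osteoclasts grown from bone marrow macrophages of wild-type mice. Both groups received 30 ng/ml M-CSF and 50 ng/ml RANKL, and day 5 stands in the sample titles. The culture protocol runs to a later day, which leaves the harvest time uncertain. The verapamil group received verapamil, a blocker of L-type calcium channels, and the control group is labelled only as control. The labels give no strain, age, sex, dose or time of drug addition, and leave unsaid whether each replicate was its own animal or culture. The p-values therefore rest on a spread that may be technical. Values came from 3 verapamil libraries and 2 control libraries (replicates 1 and 3), and control replicate 2 was not analysed here.

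Lysosomal hydrolases are made in the endoplasmic reticulum, tagged with mannose 6-phosphate in the Golgi and carried by receptors to acidic compartments. There they take apart glycosaminoglycans, glycoproteins, glycolipids, glycogen and proteins, usually in a fixed order in which each enzyme exposes the bond that the next enzyme cuts. Osteoclasts also send lysosomes to the ruffled border, where their contents are released onto bone. Many of these genes are known targets of the transcription factors TFEB, TFE3 and MITF, which bind an E-box in their promoters. Loss of single members causes lysosomal storage diseases.

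Verapamil-treated osteoclasts had higher levels of 9 of the 31 genes and a lower level of 1. Gla, Galc and Naglu, which encode alpha-galactosidase A, galactosylceramidase and alpha-N-acetylglucosaminidase, rose by 0.89, 0.73 and 0.67 on the log2 scale. The sulfatase gene Galns rose by 0.58, and Man2b2, Arsa, Neu1, Sumf1 and Idua rose by 0.35 to 0.46. Arsb, the gene of arylsulfatase B, fell by 0.98. The most highly expressed members, Hexa, Lgmn, Gusb and Man2b1, did not pass the test. Calls are those of edgeR's quasi-likelihood test across all 12619 tested genes at a Benjamini-Hochberg adjusted p under 0.05.

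By the same test 9.99% of all tested genes were higher and 15.4% lower, beside 29% and 3.23% of these genes. Their median log2 fold change was 0.18, beside -0.01 for all tested genes, and 22 of the 31 estimates were above 0. No member changed by as much as 2-fold in this fit, though in the alternative analyses the log2 fold change of Arsb reached -1.25, and that of Gla just passed 1 without control replicate 3. The groups did not overlap for 20 of the 31 genes, 16 higher and 4 lower with verapamil, against 27.7% and 29% of all tested genes in those directions (56.7% in either). All 31 genes passed the filter on low counts, and the smallest estimated count of any of them in a library was 373.54.

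**Figure D1:**
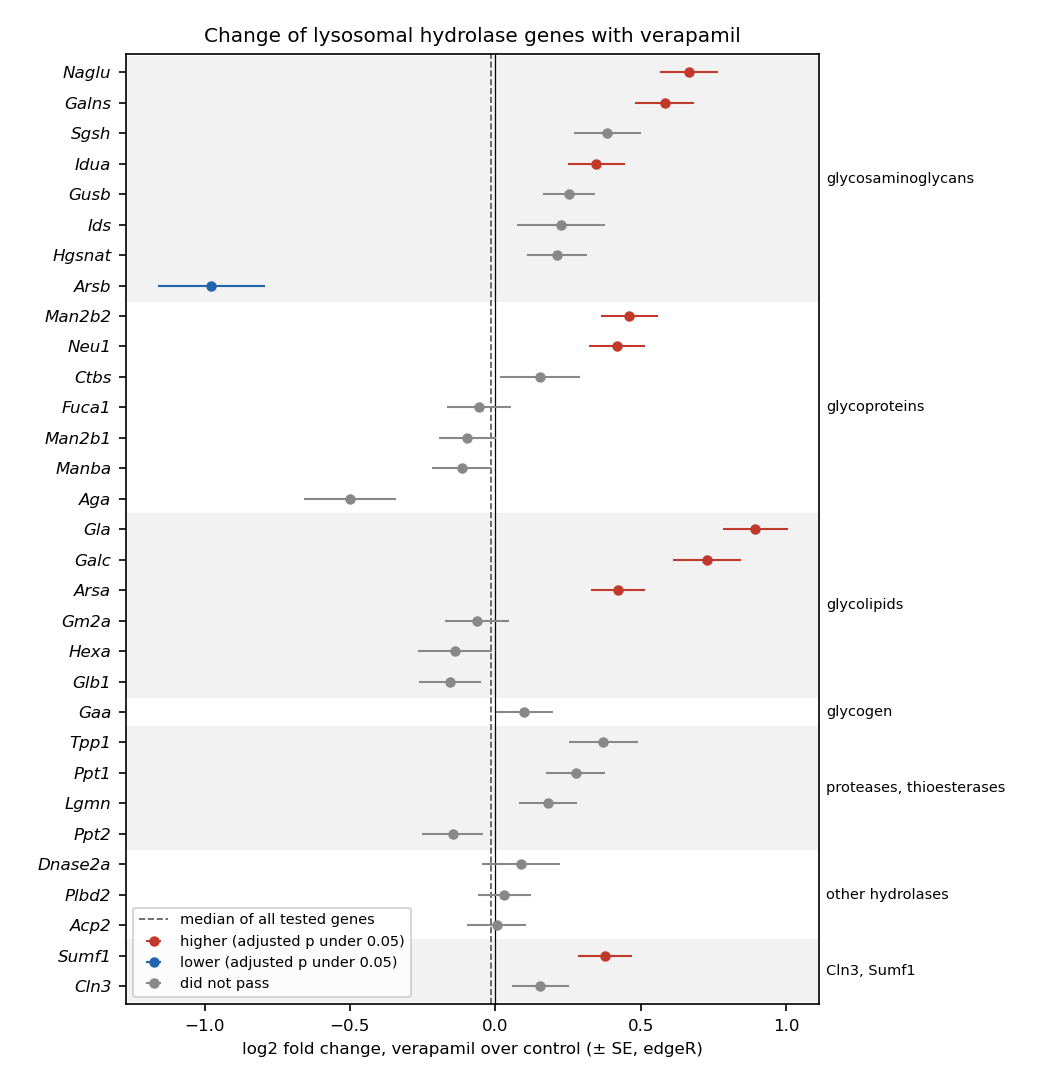
Log2 fold change (verapamil over control, horizontal axis) of each of the 31 genes with its standard error as the bar, grouped by the material the enzyme degrades; red and blue points passed the test and the dashed line is the median of all tested genes (-0.01). The 9 red points lie between 0.35 and 0.89, and Arsb lies apart at -0.98.

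The size of these changes depended on how the libraries were scaled. With TMM scaling, which equates the bulk of the genes, the 31 genes summed to 8258 and 7910 CPM (counts relative to the scaled library size) in the controls and to 9013, 8732 and 8647 CPM with verapamil. As a share of all estimated counts, without such scaling, they took 0.862% and 0.88% in the controls and 0.852%, 0.837% and 0.82% with verapamil, so the groups stood in the opposite order. Across all genes the median change was -0.13 with upper quartile factors and -0.20 with library totals. The median of the 31 genes stayed 0.19, 0.19 and 0.20 above that of all genes with TMM, upper quartile factors and library totals, respectively. Calls among the 31 genes were 5 higher and 2 lower with upper quartile factors and 4 higher and 2 lower with library totals, the added lower gene being Aga. Idua, Neu1, Arsa and Sumf1 did not pass with either of these scalings, nor Man2b2 with library totals. Over all genes the split was 1261 higher and 1939 lower with TMM, 915 and 2331 with upper quartile factors, and 626 and 2920 with library totals.

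Libraries held 20202340 to 21494523 estimated counts each. The controls differed from each other more than the verapamil libraries did, with a typical variance of 26 times counting noise between them and 1.97 to 3.93 times between verapamil libraries. By this measure control replicate 3 was nearer to the verapamil libraries (16.6 to 17.3 times) than to control replicate 1, which stood 43.6 to 54.9 times from them. Pearson correlation of log2 CPM gave the opposite order. Control replicate 3 had 0.972 with control replicate 1 and 0.962 to 0.963 with the verapamil libraries. The hydrolase genes differed less between the controls (median 0.17 on the log2 scale) than all tested genes did (0.34). The test fits a single spread per gene to both groups, so the wider spread of the controls is not modelled separately. Its effect on the standard errors and calls was not tested. Among 10 osteoclast markers 7 were lower and 1 was higher, and their summed level was 7025 to 7703 CPM in controls and 3304 to 3454 CPM with verapamil. Among 12 macrophage markers 8 were lower and 2 higher, while their sum was 30707 to 31050 CPM in controls and 41946 to 45685 CPM with verapamil. Most of that sum was Lyz2, with 21089 and 21806 CPM in the controls and 39559, 35953 and 37349 CPM in the treated libraries. Of 10 tested stromal and osteoblast markers 9 were lower, with sums of 1303 to 1488 CPM and 532 to 557 CPM. The dendritic cell markers summed to 136 to 167 CPM and 131 to 136 CPM, and 5 of the 6 tested were lower. Most of the treated sum was Itgax, which was higher, with 49.9 and 65.4 CPM in the controls and 120, 121 and 125 CPM with verapamil. Neutrophil markers stayed at or below 8.27 CPM in sum, the 2 lymphoid and 3 erythroid markers in the table summed to at most 0.103 and 0.246 CPM in any library, and Hba-a1 was at 0 throughout. The part of these shifts in the hydrolase values was not tested, and in bulk RNA fewer cells of a type cannot be told apart from less RNA per cell.

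The largest rises were in 2 genes of glycolipid breakdown. Gla (chromosome X, 134588169 to 134601005, GRCm38), whose enzyme removes the terminal alpha-galactose from globotriaosylceramide and is deficient in Fabry disease, had 159 and 185 CPM in the controls and 322, 304 and 333 CPM with verapamil. Its lowest treated library was well above the higher control. The means were 172 ± 18.3 CPM (SD, n = 2) and 320 ± 14.4 CPM (SD, n = 3), a 1.86-fold difference (log2 0.89 with SE 0.11, edgeR adjusted p = 0.00302). Galc (chromosome 12, 98202287 to 98259459), whose enzyme cleaves galactosylceramide and psychosine and is lost in Krabbe disease, had 170 and 207 CPM in the controls and 310, 322 and 304 CPM with verapamil. It rose 1.66-fold (log2 0.73 with SE 0.118, adjusted p = 0.00753), and again the groups did not overlap.

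The third gene of this size belongs to heparan sulfate breakdown. Naglu (chromosome 11, 101070090 to 101077672), whose product removes alpha-linked N-acetylglucosamine from heparan sulfate and is deficient in Sanfilippo syndrome type B, had 137 and 123 CPM in the controls and 214, 201 and 202 CPM with verapamil. The treated values lay close together and all exceeded both controls (1.59-fold, log2 0.67 with SE 0.101, adjusted p = 0.00587). Gla, Galc and Naglu were the 3 members whose calls held in all 12 alternative analyses.

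The 250 bases before the start sites of these 3 genes are shown because they carry the largest rises, and because the E-box named above can be looked for in them. They are from RefSeq on GRCm38.p6, on the strand of the gene. Capitals mark CACGTG, the E-box core, and CATGTGA, a related word, each searched on both strands. Gla lies at chrX:134601006-134601255, minus strand, Naglu at chr11:101069844-101070093, plus strand, and Galc at chr12:98259460-98259709, minus strand.
Gla: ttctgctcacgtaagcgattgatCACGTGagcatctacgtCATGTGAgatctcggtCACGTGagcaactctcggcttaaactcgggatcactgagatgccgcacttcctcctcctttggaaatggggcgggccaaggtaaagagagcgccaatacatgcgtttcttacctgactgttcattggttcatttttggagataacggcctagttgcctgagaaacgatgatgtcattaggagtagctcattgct
Naglu: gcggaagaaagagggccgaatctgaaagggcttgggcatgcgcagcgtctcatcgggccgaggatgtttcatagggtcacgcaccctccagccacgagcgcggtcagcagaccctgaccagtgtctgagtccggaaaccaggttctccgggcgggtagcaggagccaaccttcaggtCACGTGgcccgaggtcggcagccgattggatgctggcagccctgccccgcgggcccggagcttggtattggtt
Galc: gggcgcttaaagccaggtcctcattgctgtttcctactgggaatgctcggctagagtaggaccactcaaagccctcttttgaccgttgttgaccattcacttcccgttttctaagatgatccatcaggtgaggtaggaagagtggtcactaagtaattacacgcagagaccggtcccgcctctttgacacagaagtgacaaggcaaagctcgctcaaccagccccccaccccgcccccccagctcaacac

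The Gla stretch held 2 E-box cores with 1 CATGTGA between them, and the Naglu stretch held 1 core. In the Galc stretch neither word was present, so the 3 largest rises did not share it. RefSeq promoter windows, from 250 bases before to 50 after a start, were found for 27 of the 31 genes. The members without one were Aga, Galns, Hgsnat and Plbd2. CACGTG was present in a window of 9 of these 27 genes (33.3%), beside 10.6% of the 13114 genes of the table with a window and 7.15% of all 32851 windows. The longer word GTCACGTG, which contains the core, or its reverse complement CACGTGAC was present for 8 of the 27 (29.6%), beside 4.07% of those genes and 2.25% of all windows. CATGTGA or TCACATG was present for 7 of the 27 (25.9%), beside 3.27% of those genes and 3.99% of all windows. Of the 8 genes that rose and had a window 4 held the core (Gla, Naglu, Arsa and Sumf1), as did 5 of the 19 others, namely Sgsh, Glb1, Gaa, Cln3 and Lgmn. A match is a description of the letters and does not show binding.

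For each of the other 7 genes 1 core is given with its flanks, up to 10 bases on either side and cut at the start site.
Arsa (chr15:89477425-89477450): aactcagtgtCACGTGttgtctgctc
Sumf1 (chr6:108185584-108185604): caccacaggtCACGTGatctc
Sgsh (chr11:119355524-119355549): gcctgccgtgCACGTGaccgtgggga
Glb1 (chr9:114401020-114401045): gcttctgagtCACGTGgcctacagag
Gaa (chr11:119267813-119267838): tctgtgcgatCACGTGtttgactctg
Cln3 (chr7:126583342-126583367): cgggtactgtCACGTGacccccaacc
Lgmn (chr12:102439126-102439151): gaatgtctgtCACGTGgtccatttta
All are on GRCm38.p6 in the direction of the gene. The core began 11 bases before the start of Sumf1, 16 before that of Arsa, 29 before that of Sgsh and 48 before that of Glb1. It lay farther out for Gaa, at 140 bases, and Cln3, at 121 bases (with another core at 149). That other core of Cln3 is not printed and had AG before it, unlike the printed one. Cln3 and Lgmn each also had a start window with 0 cores in its 250 bases. Arsa and Sumf1 rose, and Sgsh, Glb1, Gaa, Cln3 and Lgmn did not pass the test. In all 9 genes with a core, at least 1 core had a T before it or an A after it, so genes with that flank lay on both sides of the threshold.

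Among the other glycolipid enzymes Arsa rose. It encodes arylsulfatase A, which removes the sulfate of sulfatide and is deficient in metachromatic leukodystrophy. Control values were 49.3 and 48.8 CPM and verapamil values 67.2, 65.1 and 64.7 CPM (log2 0.42 with SE 0.0934, adjusted p = 0.0217). Its spread was small in both groups, and 18.75% of its exon bases overlap C230037L18Rik on the opposite strand. The remaining members of this group did not pass the test. Hexa, the alpha subunit of beta-hexosaminidase, had 1553 and 1214 CPM in the controls and 1312, 1223 and 1237 CPM with verapamil, so all treated values lay between the controls (log2 -0.14, adjusted p = 0.448). Gm2a, the activator that lifts GM2 ganglioside to that enzyme, likewise had all treated values (498 to 519 CPM) between its controls (480 and 576 CPM). Glb1, the beta-galactosidase of GM1 ganglioside, had 184 and 164 CPM and then 168, 152 and 149 CPM (log2 -0.16, adjusted p = 0.313).

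Ratios of counts within a library do not depend on scaling, and those below were chosen after the values were seen. There were 0.864 and 1.12 counts of Gla for each count of Glb1 in the controls, and 1.91, 2.00 and 2.24 with verapamil. The ratio of Galc to Glb1 was 0.921 and 1.26 in the controls and 1.84, 2.12 and 2.05 with verapamil. Both ratios were higher in every treated library than in either control.

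Of the 8 genes of glycosaminoglycan degradation 3 rose and 1 fell. Galns (chromosome 8, 122578237 to 122611701), whose enzyme desulfates keratan sulfate and chondroitin 6-sulfate, had 84.7 and 75.1 CPM in the controls and 123, 119 and 117 CPM with verapamil (49.8% higher, log2 0.58 with SE 0.101, adjusted p = 0.00977). Idua, the alpha-L-iduronidase of heparan and dermatan sulfate, had 53.5 and 59.1 CPM and then 72, 72.3 and 70.6 CPM. Its groups did not overlap, and it was the called gene nearest the threshold (log2 0.35 with SE 0.0982, adjusted p = 0.0466). Arsb moved the other way. Its enzyme removes the 4-sulfate of dermatan and chondroitin sulfate and is deficient in Maroteaux-Lamy syndrome. The controls had 107 and 166 CPM and the verapamil libraries 68.9, 71.8 and 67.2 CPM (log2 -0.98 with SE 0.185, adjusted p = 0.0128).

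The controls were far apart for Arsb, with the widest control difference of the 31 genes (0.63 on the log2 scale). Its log2 fold change was -1.25 when control replicate 1 was left out and -0.62 when control replicate 3 was. Arsb no longer passed in the fits that lacked verapamil replicate 1 (adjusted p = 0.0633) or 3 (adjusted p = 0.0612). In GENCODE M21, 39.9% of the exon bases of Arsb (chromosome 13, 93771679 to 93943016) overlap the opposite-strand transcripts Gm26527 and Gm47210. As the sources used here do not state whether strand was used in counting, reads of these transcripts cannot be told apart from those of Arsb. For each count of Arsb there were 0.792 and 0.452 counts of Galns in the controls and 1.79, 1.65 and 1.74 with verapamil. These counts are not corrected for transcript length, so they do not rank the 2 sulfatases. Per kilobase of transcript Galns and Arsb had means of 34.2 and 33.8 CPM in the controls. With verapamil these means were 51.2 and 17.2 CPM.

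The other 4 glycosaminoglycan genes did not pass the test. Sgsh, the heparan N-sulfatase, was closest, with 51.1 and 60.7 CPM in the controls and 70.9, 76.3 and 71.7 CPM with verapamil (log2 0.38, adjusted p = 0.0552), and it passed with DESeq2 (adjusted p = 0.0319). Its exons overlap those of Card14 on the opposite strand over 21.6% of their bases. Gusb, the beta-glucuronidase, had 618 and 620 CPM and then 769, 712 and 734 CPM, with no overlap of the groups (log2 0.25, adjusted p = 0.0899). Hgsnat, the acetyltransferase of the heparan pathway, had 105 and 119 CPM and then 135, 131 and 124 CPM (log2 0.21, adjusted p = 0.175). Ids, the iduronate 2-sulfatase, depended on the control taken, with 78.4 CPM in control replicate 1 and 106 CPM in control replicate 3 against 100, 115 and 108 CPM with verapamil. Its log2 fold change of 0.23 (adjusted p = 0.3) became 0.03 when the first was left out and 0.46 when the other was (edgeR adjusted p = 0.815 and 0.00237, each with a single control).

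**Figure D2:**
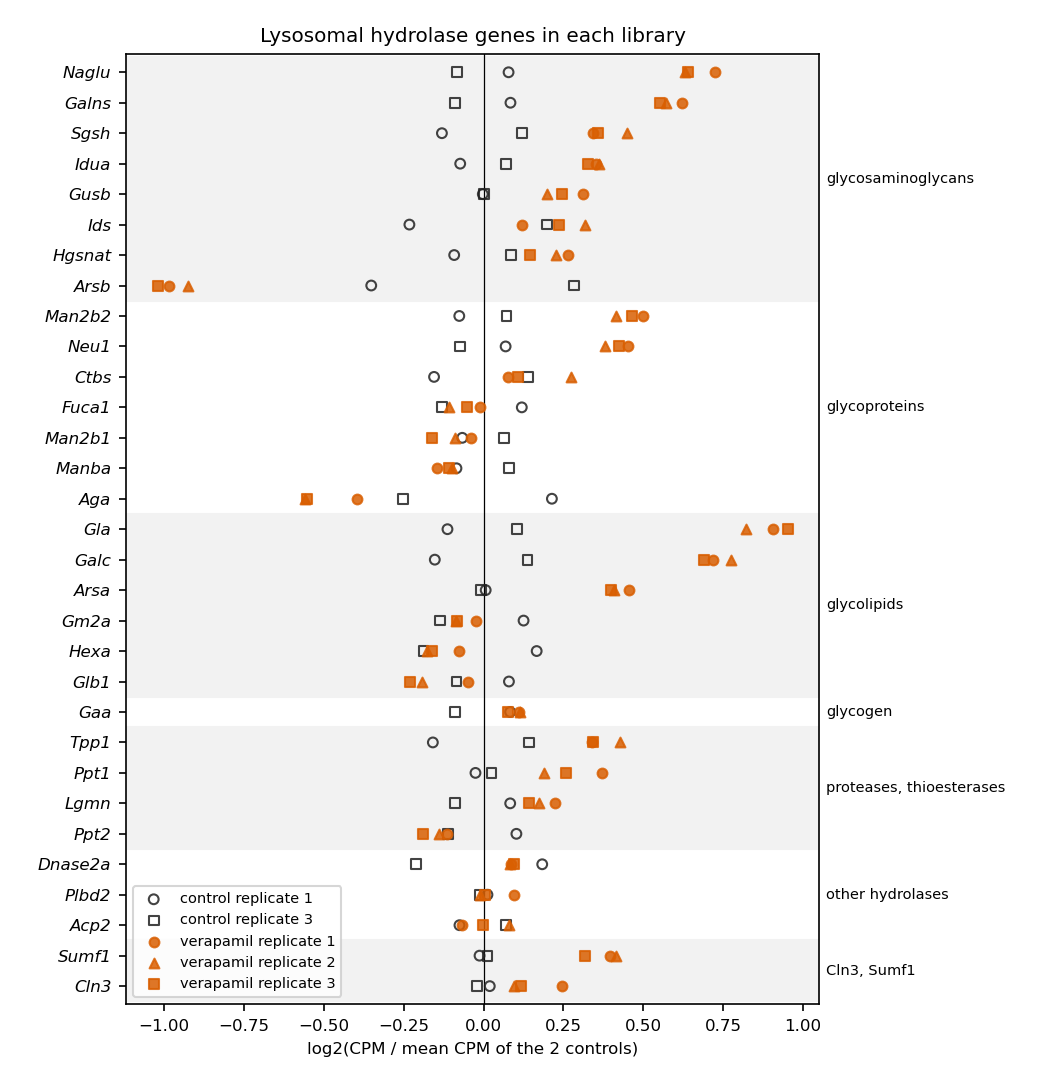
Each library's level of the 31 genes as log2 of its CPM over the mean CPM of the 2 controls (horizontal axis), with open symbols for controls and filled symbols for verapamil. All 3 verapamil points of Gla, Galc, Naglu and Galns lie to the right of both controls, those of Arsb lie to the left of both, and those of Hexa and Gm2a lie between the controls.

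The sulfatases share an activating step. Sumf1 encodes the formylglycine-generating enzyme, which converts a cysteine in the active site of every sulfatase. It rose from 101 and 102 CPM in the controls to 134, 135 and 127 CPM with verapamil (log2 0.38 with SE 0.0916, adjusted p = 0.0292). Of the 5 sulfatase genes among the members, Galns and Arsa rose, Arsb fell, and Sgsh and Ids did not pass the test. The activator and its substrates therefore did not all move in the same direction.

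Of the 7 genes that degrade N-linked glycans and glycoproteins 2 rose. Man2b2, a lysosomal alpha-mannosidase that cuts the core alpha-1,6 linkage, had 127 and 140 CPM in the controls and 189, 178 and 184 CPM with verapamil (log2 0.46 with SE 0.0974, adjusted p = 0.0186). Man2b1, the major lysosomal alpha-mannosidase, is its paralog and was much more abundant, with 879 and 962 CPM and then 896, 864 and 822 CPM (log2 -0.10, adjusted p = 0.484). For each count of Man2b1 there were 0.144 and 0.146 counts of Man2b2 in the controls and 0.211, 0.206 and 0.224 with verapamil, a clear separation of the groups. Neu1, the sialidase that starts the removal of glycan chains and acts in a complex with Ctsa and Glb1, had 118 and 107 CPM and then 153, 146 and 150 CPM (log2 0.42 with SE 0.0965, adjusted p = 0.0245). Its partner gene Ctsa, which is no member, had 1190 ± 212 CPM (n = 2) and 1131 ± 42 CPM (n = 3).

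Aga, the aspartylglucosaminidase that cuts the last bond between sugar and protein, was lower in all treated libraries than in either control. It had 63 and 45.6 CPM in the controls and 41.3, 36.9 and 37 CPM with verapamil, which missed the threshold (log2 -0.50 with SE 0.159, adjusted p = 0.0656). It passed as lower with upper quartile factors (log2 -0.63, adjusted p = 0.048), library totals, DESeq2, the length trend removed and without control replicate 3. Leaving out control replicate 1 gave a log2 fold change of -0.24, and leaving out control replicate 3 gave -0.71. Fuca1 (alpha-fucosidase, log2 -0.06), Manba (beta-mannosidase, log2 -0.12) and Ctbs (chitobiase, log2 0.15) had adjusted p of 0.415 to 0.723. Ctbs was the least expressed member, at 18.7 ± 2.69 CPM (n = 2) in the controls and 20.8 ± 1.56 CPM (n = 3) with verapamil.

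No gene of the remaining degradative groups passed the test, either for the proteases and thioesterases (4 genes), for glycogen (Gaa alone) or for the phosphatase, nuclease and phospholipase-like genes (3 genes). Tpp1 and Ppt1 had an unadjusted p under 0.05 in edgeR and did not pass after adjustment. Tpp1, the tripeptidyl peptidase lost in a form of Batten disease, had 398 and 490 CPM in the controls and 562, 597 and 564 CPM with verapamil (log2 0.37 with SE 0.119, adjusted p = 0.0673), and it passed with DESeq2 (adjusted p = 0.0358). Ppt1, a thioesterase that removes palmitate from proteins, had 101 and 104 CPM and then 132, 117 and 122 CPM (log2 0.28, adjusted p = 0.0932). Lgmn, the asparaginyl endopeptidase that processes cathepsins, had 1144 and 1016 CPM and then 1262, 1218 and 1193 CPM (log2 0.18, adjusted p = 0.22). For these 3 genes the groups did not overlap, but the adjusted p was above the threshold. Ppt2, a related thioesterase, had lower treated values (log2 -0.15, adjusted p = 0.334), and the transcript Gm20460 covers 36.6% of its exon bases.

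Gaa, the acid alpha-glucosidase of glycogen that is deficient in Pompe disease, had 253 and 225 CPM in the controls and 258, 259 and 252 CPM with verapamil (log2 0.10 with SE 0.0967, adjusted p = 0.465). Its treated values exceeded those of control replicate 3 and lay close to those of control replicate 1. Acp2, a lysosomal acid phosphatase, had 274 ± 19.7 CPM (n = 2) and 274 ± 14 CPM (n = 3), with a log2 fold change of 0.00 (SE 0.101). Plbd2, a phospholipase B-like protein, had 190 ± 2.31 and 195 ± 7.89 CPM (log2 0.03, SE 0.0907). Dnase2a, the acid nuclease that digests engulfed DNA, had 134 and 102 CPM in the controls and 125, 125 and 126 CPM with verapamil, so its treated values lay between the controls. Mast1, on the opposite strand, overlaps 30.0% of the exon bases of Dnase2a. Cln3, a membrane protein of the lysosome whose loss causes juvenile Batten disease, had 97.8 and 95.1 CPM and then 114, 103 and 105 CPM (log2 0.15 with SE 0.0978, adjusted p = 0.277).

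Levels were compared between genes per kilobase of transcript, from the median length of the coding transcripts of each gene. In the controls Hexa was the highest of the 31 genes, at 693 CPM per kilobase, followed by Lgmn at 565, Gusb at 304 and Man2b1 at 241 CPM per kilobase. With verapamil Lgmn (640 CPM per kilobase) and Hexa (630) changed places, a switch smaller than the spread of Hexa between its controls, and Gusb (362) and Man2b1 (225) followed. Ctbs was lowest in both groups, at 6.78 and 7.55 CPM per kilobase. Gla moved from rank 14 to rank 10 (54.2 and 101 CPM per kilobase), Galc from rank 17 to rank 11 (49.2 and 81.5) and Naglu from rank 16 to rank 12 (50.7 and 80.5). Arsb moved from rank 25 to rank 28 (33.8 and 17.2 CPM per kilobase). Sumf1, at rank 8 in the controls and rank 6 with verapamil (97.2 and 126 CPM per kilobase), was the highest of the genes that rose, and none of the 4 highest members passed the test.

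**Figure D3:**
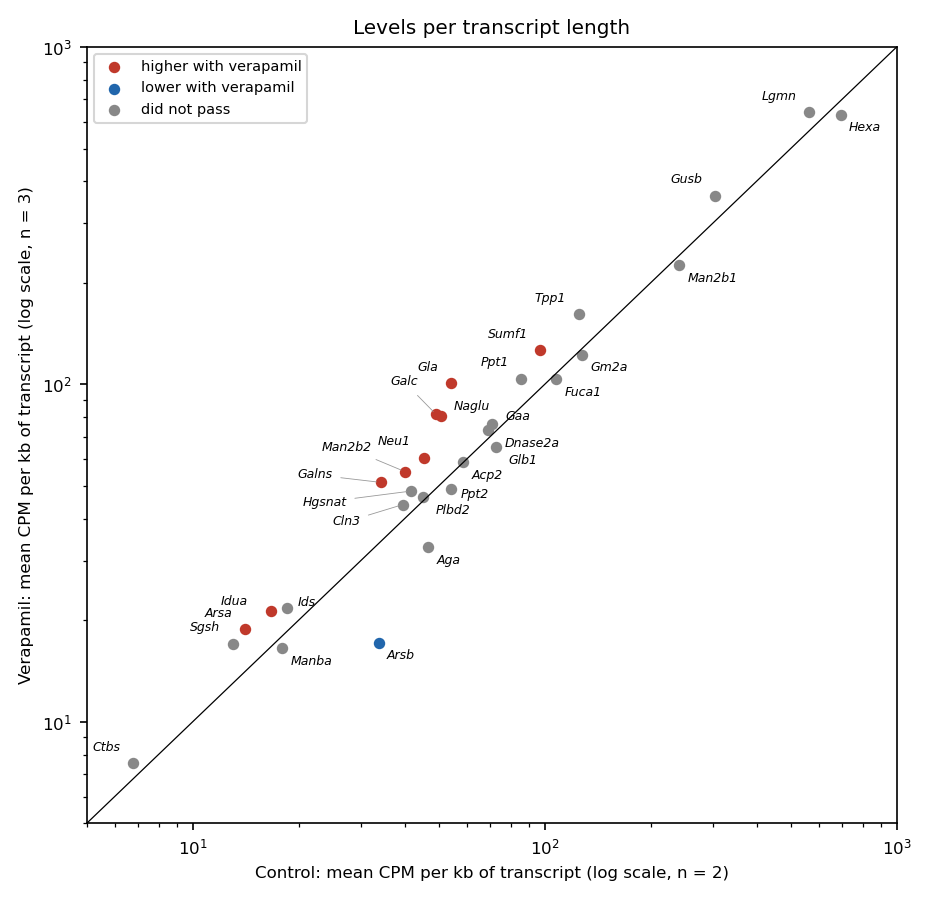
Mean level per kilobase of transcript in controls (horizontal, n = 2) and with verapamil (vertical, n = 3), both on log axes, for the 31 genes; the line marks equal levels. Gla, Galc and Naglu lie above the line between 49.2 and 54.2 CPM per kilobase in the controls, Arsb lies below it, and Hexa, Lgmn, Gusb and Man2b1 at the top right did not pass the test.

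The spread between libraries was set against the changes. For 12 of the 31 genes the difference between the controls was larger than the estimated change with verapamil, and none of these 12 was among the 10 called genes. Control replicate 3 was the higher control for 16 genes and the lower for 15. The verapamil libraries were close to each other, with a median ratio of highest to lowest of 0.10 on the log2 scale and none above 0.20. Leaving out any verapamil library reduced the genes that rose from 9 to 3. Those 3 were Gla, Galc and Naglu each time, with adjusted p of 0.0197 to 0.0467. The fold changes of the other 6 stayed between 0.34 and 0.60 in those fits. Fits without any one library, control or verapamil, have fewer residual degrees of freedom, and the cause of the lost calls was not tested. Over all genes, leaving out a verapamil library gave 440 to 476 higher and 1009 to 1093 lower. Fits with a single control hold no spread between controls. Without control replicate 1 the median of the 31 genes was 0.19, beside 0.00 for all tested genes. Without control replicate 3 these medians were 0.26 and -0.01.

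**Figure D4:**
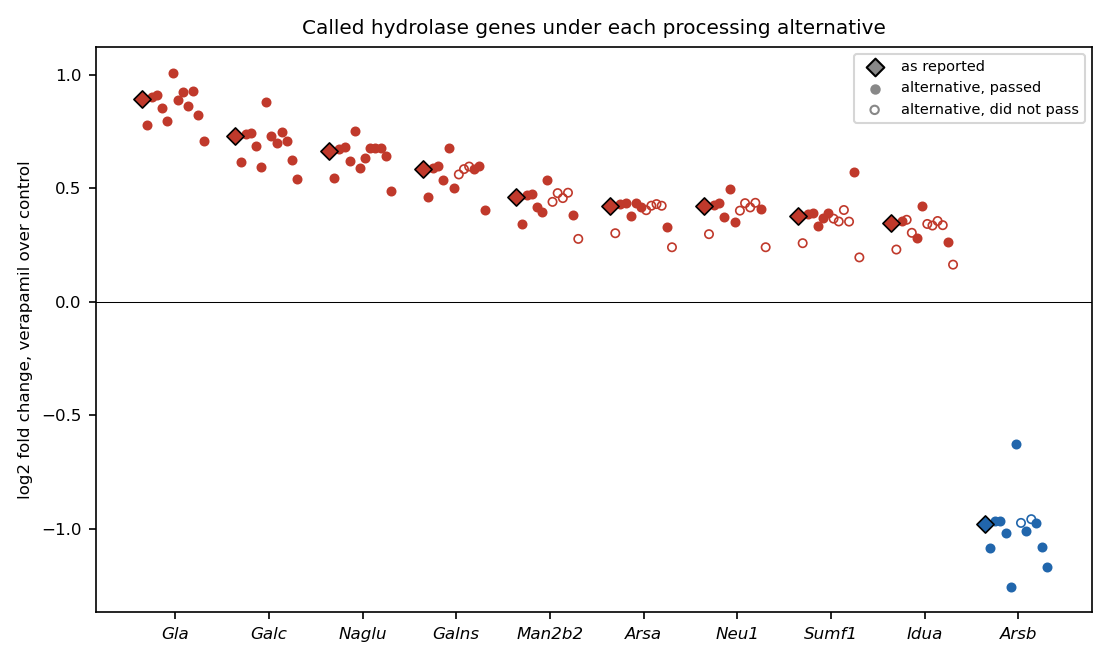
Log2 fold change (vertical axis) of the 10 called genes as reported (diamonds) and in each of 12 alternative analyses (circles, filled where the adjusted p was under 0.05). All circles of Gla, Galc and Naglu are filled, those of Idua are filled in 4 of 12 alternatives, and Arsb ranges from -1.25 to -0.62.

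Related genes of the same pathway are given for comparison by counts. Of 28 other tested lysosomal hydrolases and cofactors 8 were higher and 4 lower, with a median log2 fold change of 0.19, which is close to the 0.18 of the 31 genes. Among those that changed were Plbd1, with 30 counts in the controls and 9 with verapamil (log2 -2.09, adjusted p = 0.0172), Acp5, the tartrate-resistant phosphatase of osteoclasts (log2 -1.85, adjusted p = 0.000437) and the fucosidase gene Fuca2 (log2 0.73, adjusted p = 0.00384). Acp5 had 2138 and 1918 CPM in the controls and 584, 556 and 545 CPM with verapamil. It thus fell further than any of the 31 genes, while the other lysosomal phosphatase gene Acp2 gave 0.00.

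Of 17 genes that deliver enzymes to lysosomes 4 were higher and the others did not pass (median log2 0.28). They were Igf2r, the large mannose 6-phosphate receptor, with 282 and 403 CPM in the controls and 493, 599 and 567 CPM with verapamil (log2 0.69, adjusted p = 0.035), the sorting receptor Sorl1 (log2 0.85, adjusted p = 0.0451), the retromer subunit Vps35 (log2 0.54, adjusted p = 0.0359) and the adaptor Gga2 (log2 0.40, adjusted p = 0.0469). On the log2 scale control replicate 3 exceeded control replicate 1 by 0.51 for Igf2r, 0.71 for Sorl1, 0.41 for Vps35 and 0.27 for Gga2. Calls of the related genes were not followed through the alternative analyses. M6pr, the small receptor, had 493 and 403 CPM on average (log2 -0.29, adjusted p = 0.0612), and Gnptab, which makes the tag, had a log2 fold change of -0.17 (adjusted p = 0.541). The 17 genes listed for lysosomal export do not all carry breakdown products out of the lysosome. Of these 17 genes 8 were higher and the others did not pass (median log2 0.39). The largest were Mfsd12 (log2 0.90, adjusted p = 0.00153), the amino acid transporter Slc36a1 (log2 0.87, adjusted p = 0.00648), the peptide transporter Slc15a3 (log2 0.83, adjusted p = 0.00208) and the cholesterol transporter Npc1 (log2 0.72, adjusted p = 0.0198). Slc17a5, which exports the sialic acid that Neu1 releases, rose as well (log2 0.52, adjusted p = 0.028). The medians of these lists were not tested against each other.

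**Figure D5:**
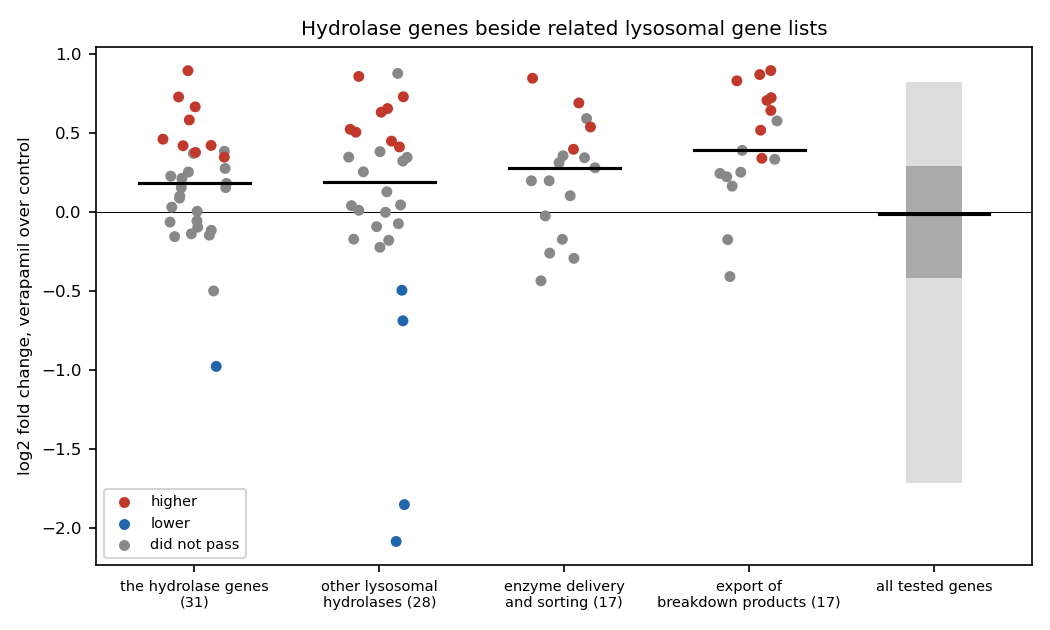
Log2 fold change (vertical axis) of the 31 hydrolase genes and of 3 related lists, with a black line at each median (0.18, 0.19, 0.28 and 0.39); the bar at the right gives the middle 50% (dark) and 90% (light) of all tested genes. Red and blue points passed the test, and the lower points at -1.85 and -2.09 are Acp5 and Plbd1.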

How the data were processed

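The authors deposited estimated counts per gene, which carry decimals and appear unnormalized from their differing library sums. Per the submitters' processing notes the builds were GRCm38 and mm10. How reads were aligned, counted and annotated is not given in the sources used here. Counts were rounded and fitted in R 4.3.3 with edgeR 4.0.16 (TMM factors, default expression filter with minimum count 10 and total 15, quasi-likelihood test, group as the only term, 3 residual degrees of freedom). P-values were adjusted over all 12619 tested genes by the Benjamini-Hochberg method. CPM use TMM-scaled library sizes, SD are over libraries, and standard errors are the log2 fold change divided by the root of its F statistic. Transcript lengths, exon overlaps and positions come from GENCODE M21 and RefSeq (GRCm38), with Python 3.11.15. The fit was also run on simulated counts with the same dispersion for every gene. That setting does not match the unequal spread of the groups here, and nothing above rests on it. Alternatives were DESeq2 1.42.0, other scalings and filters, a transcript length correction, a replicate block and leaving out each library. The members and lists were chosen with earlier results of these data known. All members are named, and related lists are given by counts with up to 4 called genes of largest change (1 result is not reported here), plus genes chosen after their values were seen (Ctsa, M6pr, Gnptab and Slc17a5).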

Additional observations from a re-analysis of the deposited data

How the results depend on the processing

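All 12 alternatives kept the sign of the 10 called genes, and Gla, Galc and Naglu passed in each. The alternatives gave 285 values for single genes on the same side of the threshold and in the same direction, 36 that no longer passed, 29 that newly passed and 22 with another sign, none of the latter in a called gene. Genes that rose numbered 5 with upper quartile factors, 4 with the replicate block, 14 with the length trend removed and 4 with library totals (chosen after seeing the data). Genes that fell numbered 2 with upper quartile factors, DESeq2 and library totals, and 3 with the length trend removed. Calls over the whole table moved too. With the length trend removed 2126 of all 12357 tested genes were higher and 2623 lower. The replicate block gave 1301 higher and 2005 lower of 12571, and DESeq2 gave 1600 and 1918 of 12619. The median was 0.058 with upper quartile factors, 0.14 with the stricter filter (minimum count 50) and 0.00 with library totals (unrounded 0.00186). Leaving out single libraries gave 3 to 16 higher and 0 to 6 lower genes, a median of 0.18 to 0.26, and 1460 to 7808 changed genes in the whole table.

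With upper quartile factors Gaa was -0.023, Acp2 -0.11, Dnase2a -0.039 and Plbd2 -0.089. With library totals Ctbs was -0.031, Gaa -0.079, Acp2 -0.18, Dnase2a -0.088, Plbd2 -0.15 and Cln3 -0.027. Acp2 was -0.039 and Plbd2 -0.014 with the stricter filter, and -0.15 and -0.11 with the length trend removed. Leaving out libraries gave -0.18 to 0.079 for Fuca1, -0.30 to 0.055 for Hexa, -0.19 to 0.078 for Gm2a, -0.063 to 0.080 for Acp2, -0.095 to 0.30 for Dnase2a and -0.0046 to 0.048 for Plbd2. The cause was not tested. In the fit with the replicate block (numbers 1 and 3, 4 libraries) 4 genes were higher and 1 lower, Acp2 was -0.038, and Idua, Man2b2, Neu1, Arsa and Sumf1 did not pass. The samples share only a number, and deviations of same-numbered libraries had a correlation of 0.186 across genes. With only 2 controls, small changes may not have been detectable.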
